A study of Mus musculus with 12 samples.

Results

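The 10 genes described here encode NF-kB transcription factor subunits and the regulators that NF-kB itself induces: Rel, Relb, Nfkb1 and Nfkb2, the IkB family members Nfkbia, Nfkbiz, Nfkbid and Bcl3, and the ubiquitin-editing genes Tnfaip3 and Birc3. They were chosen by symbol, with earlier results of these data known, and make up 10 of the 24417 gene symbols in the deposited tables. All 10 passed the filter on low values, a mean normalized count of at least 10, in each of the 4 comparisons.

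NF-kB factors are dimers that IkB proteins hold in the cytoplasm of resting cells. In T cells, signals from the antigen receptor, CD28 and receptors of the TNF family activate the IKK kinases, which mark IkB proteins for degradation and so free the dimers to enter the nucleus. Freed dimers switch on their own brakes, among them the inhibitor IkB alpha, encoded by Nfkbia, and the ubiquitin editor A20, encoded by Tnfaip3. In regulatory T cells (Tregs), c-Rel, encoded by Rel, is known for its part in the induction of Foxp3.

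RNA was sequenced from sorted Tregs of NOD mice, a strain that develops autoimmune diabetes, at an age of 6.8 weeks. The mice were retrogenic, meaning that T cell receptor (TCR) genes were carried into bone marrow cells, and expressed 2 insulin-specific TCRs, of which 4-8 is the high affinity and 12-4.4m1 the low affinity receptor. The 4 groups of 3 libraries were islet Tregs with the 4-8 TCR, islet Tregs with the 12-4.4m1 TCR, spleen Tregs with the 4-8 TCR and spleen Tregs with the 12-4.4m1 TCR, and the comparisons were islets against spleen within each TCR and 4-8 against 12-4.4m1 within each tissue. Each affinity is represented by a single TCR. Since no label ties the libraries to individual animals, every p-value reflects how far these libraries spread, which may be technical.

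Values per library are the authors' rlog values, a log2 scale in which differences are shrunk, most for low-count genes. Each comparison has its own separately normalized table. The depth of each library is not given in the sources used here. Foxp3, the defining Treg factor, was high in every library, at 9.61 to 9.93 in islets and 9.76 to 9.81 in spleen for 4-8, and at 9.04 to 9.36 in islets and 8.95 to 9.36 in spleen for 12-4.4m1 on the rlog scale. Most markers of other immune cells and of endocrine cells were below a mean normalized count of 10. In the tables of islets against spleen, 0 of 5 B cell markers and 0 of 5 CD8 T and NK cell markers reached it with either TCR, and in the spleen comparison of TCRs 1 of the 5 B cell markers did, Cd79b at 12.7. Of 8 myeloid markers, Cd68 (23.2), Itgam (20.3) and Cst3 (460.4) reached it for 4-8 and Cst3 (280.4) for 12-4.4m1, while Csf1r of macrophages had 0.501 and 1.82. None of the myeloid markers tested differed past the threshold between islets and spleen. Of 8 endocrine markers 0 reached it for 4-8, and for 12-4.4m1 the glucagon gene Gcg did, at 12.9, with an islet minus spleen difference of -0.72 (limma adjusted p = 0.057). The insulin gene Ins2 had mean normalized counts of 0.711 for 4-8 and 3.30 for 12-4.4m1.

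The promoter windows of 5 of the genes are shown because NF-kB dimers bind a short DNA element, the kappa-B motif, and because these genes span calls between tissues with both TCRs (Tnfaip3, Nfkbid, Bcl3), the highest FPKM (Nfkbia) and no call (Nfkb2). Tnfaip3, Nfkbid and Nfkb2 have further RefSeq starts, and a window with matches was picked for display. Each window runs from 250 bases before to 50 bases after a RefSeq gene start in the GRCm38.p6 build, 5′ to 3′ on the gene's own strand, and capitals mark matches to the 10-base kappa-B consensus motif on either strand. The windows are Tnfaip3 at chr10:19015361-19015660 (minus strand), Nfkbid at chr7:30422156-30422455 (plus strand), Bcl3 at chr7:19822706-19823005 (minus strand), Nfkbia at chr12:55492598-55492897 (minus strand) and Nfkb2 at chr19:46304487-46304786 (plus strand).
Tnfaip3: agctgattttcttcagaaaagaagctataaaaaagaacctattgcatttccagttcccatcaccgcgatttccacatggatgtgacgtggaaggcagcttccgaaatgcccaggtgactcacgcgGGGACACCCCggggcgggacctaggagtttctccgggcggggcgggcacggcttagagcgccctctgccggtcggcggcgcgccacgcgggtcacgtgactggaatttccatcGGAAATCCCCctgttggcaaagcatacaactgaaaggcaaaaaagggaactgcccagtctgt
Nfkbid: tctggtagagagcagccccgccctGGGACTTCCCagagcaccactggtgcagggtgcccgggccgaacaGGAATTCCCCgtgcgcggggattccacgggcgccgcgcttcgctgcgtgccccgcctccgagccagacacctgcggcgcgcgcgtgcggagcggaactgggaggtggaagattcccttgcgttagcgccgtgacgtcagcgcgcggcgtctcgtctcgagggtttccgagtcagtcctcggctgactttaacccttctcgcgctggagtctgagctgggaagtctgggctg
Bcl3: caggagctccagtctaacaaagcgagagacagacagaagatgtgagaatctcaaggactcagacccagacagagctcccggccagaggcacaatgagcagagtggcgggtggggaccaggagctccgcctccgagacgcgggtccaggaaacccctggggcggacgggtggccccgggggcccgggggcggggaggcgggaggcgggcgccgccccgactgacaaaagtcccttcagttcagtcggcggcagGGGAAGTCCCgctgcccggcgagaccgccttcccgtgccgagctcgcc
Nfkbia: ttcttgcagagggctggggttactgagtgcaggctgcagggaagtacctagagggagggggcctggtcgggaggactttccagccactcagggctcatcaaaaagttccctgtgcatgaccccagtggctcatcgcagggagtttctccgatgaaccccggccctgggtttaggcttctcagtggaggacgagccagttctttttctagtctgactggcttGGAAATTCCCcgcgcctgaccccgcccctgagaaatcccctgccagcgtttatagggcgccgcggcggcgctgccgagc
Nfkb2: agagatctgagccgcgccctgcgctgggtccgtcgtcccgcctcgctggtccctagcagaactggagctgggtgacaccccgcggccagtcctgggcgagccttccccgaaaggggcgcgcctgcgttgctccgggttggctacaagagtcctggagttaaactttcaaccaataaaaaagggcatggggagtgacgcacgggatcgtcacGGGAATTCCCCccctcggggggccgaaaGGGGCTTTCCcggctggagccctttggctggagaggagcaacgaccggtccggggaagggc

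Counted from the RefSeq start of the window shown, the matches begin at -125 and -12 in Tnfaip3, at -226 and -181 in Nfkbid, at +3 in Bcl3 and at -29 in Nfkbia. In Nfkb2 they begin at -39, -38 and -11, and those at -39 and -38 overlap each other. The Nfkbid window shown lies inside the gene. The other Nfkbid windows, at chr7:30421481-30421780 and chr7:30423025-30423324, held 0 matches, as did the other Tnfaip3 window. RefSeq windows were given for 7 of the 10 genes, and 6 of these 7 held the motif in at least 1 of their windows. Of all their 12 windows, 8 held it. The Nfkb2 windows at chr19:46305445-46305744 and chr19:46305680-46305979 overlap and share a match, which is counted in both. Rel had overlapping matches at -92 and -91, and the Birc3 window held no match to these letters. Over the whole table, 4.51% of 32851 windows and 5.14% of 27025 symbols held the motif. Nfkb2 carried 3 match positions in the window shown, those at -39 and -38 overlapping, against 1 or 2 in the other windows printed. Any relation between matches and level was not tested. Nfkbiz, Relb and Nfkb1 were not among the windows. By GENCODE vM21, all 10 are protein-coding genes. Tnfaip3 lies at chr10:19000910-19015657, Nfkbiz at chr16:55811375-55838899 and Nfkbid at chr7:30421732-30428746. Bcl3, at chr7:19808462-19822770, is overlapped by the antisense genes Gm16175 and Gm16174, and Nfkb2 is overlapped at its ends by AC114539.1 and Psd on the opposite strand. Nfkb1 is overlapped by Gm43430 on its own strand. These overlaps cover only part of each of the genes. Whether counting used strand is not given in the sources used here. Within the overlaps, reads of Bcl3 and Nfkb2 therefore cannot be told apart from reads of these partners. Reads of Nfkb1 and Gm43430 cannot be told apart within their overlap with either kind of counting.

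Islet Tregs carried more transcripts of the A20 gene Tnfaip3 and of the 3 atypical IkB genes than spleen Tregs, with either TCR, while Nfkbia, Birc3 and most of the subunit genes did not pass the test. For 4-8, 4 of the 10 genes rose in islets and 0 fell, where 5.14% of all 8981 genes tested rose and 2.84% fell (limma on rlog values, Benjamini-Hochberg adjusted p below 0.05). For 12-4.4m1, 5 of 10 rose and 0 fell, where 4.63% of 8438 genes tested rose and 2.18% fell. Tnfaip3, Nfkbid, Nfkbiz and Bcl3 were called with both TCRs, and Rel with 12-4.4m1. The median difference over the 10 genes was 0.55 for 4-8 and 0.56 for 12-4.4m1 (log2), against -0.01 and -0.00 over all genes tested. In bulk samples, fewer cells that express a gene and less of its RNA per cell cannot be told apart.

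**Figure D1:**
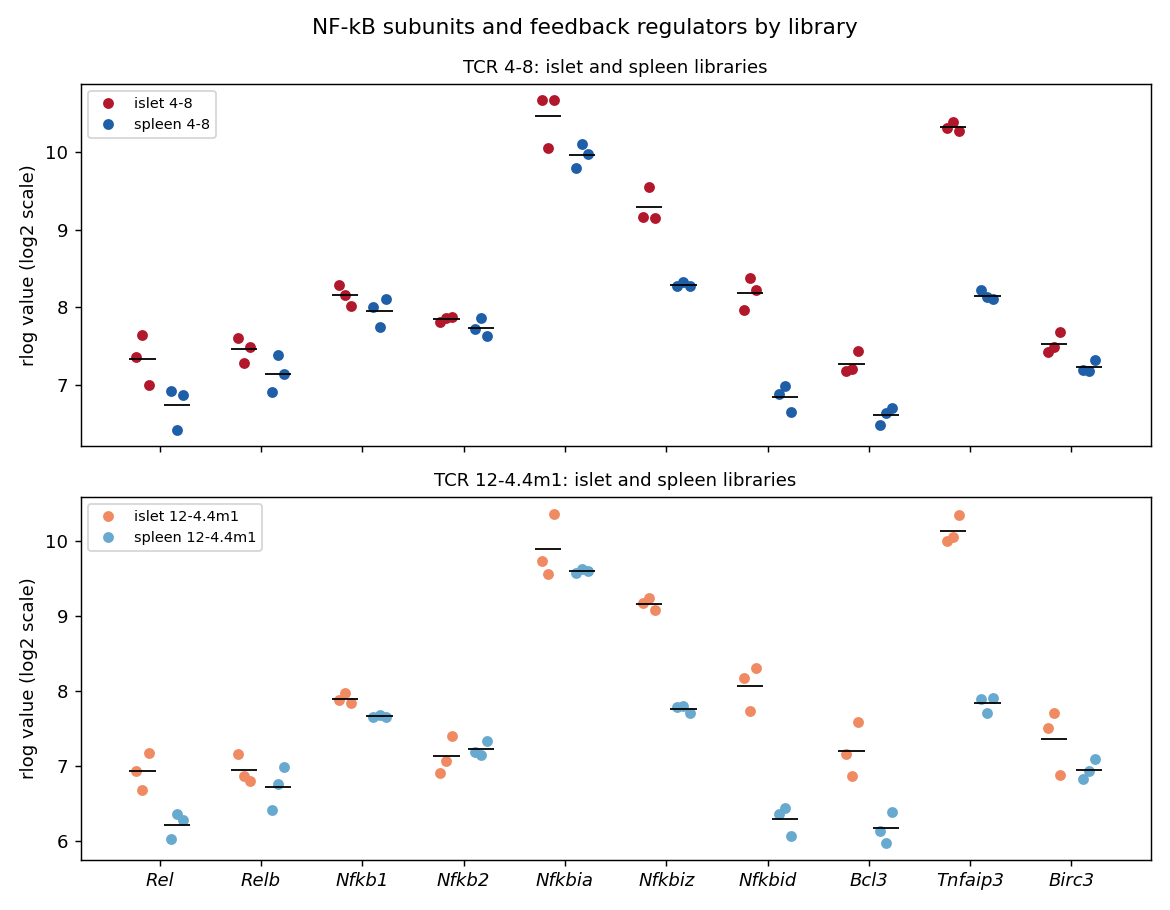
Rlog value (log2 scale) of each of the 10 genes in every library, islets in red shades left of spleen in blue shades, for 4-8 above and 12-4.4m1 below; points are libraries and lines are group means. Tnfaip3 lies above 10 in all 6 islet libraries and between 7.71 and 8.22 in the 6 spleen libraries, while Nfkb2 values of islets and spleen overlap with both TCRs.

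Tnfaip3, whose product A20 removes and adds ubiquitin chains to shut down signalling towards IKK, showed the widest gap. With the 4-8 TCR its rlog values were 10.31, 10.39 and 10.27 in islets, against 8.22, 8.13 and 8.10 in spleen. With the 12-4.4m1 TCR they were 10.002, 10.05 and 10.34 in islets, against 7.89, 7.71 and 7.91 in spleen. Every islet library was above every spleen library of its TCR by more than 2 on this log2 scale. The mean rlog difference was 2.17 (95% interval 1.89 to 2.46) for 4-8 (limma adjusted p = 8.4e-09). For 12-4.4m1 it was 2.29 (1.996 to 2.59, limma adjusted p = 2.6e-11). On this shrunken scale these differences are 4.51-fold and 4.90-fold. The log2 folds of the authors' deposited DESeq2 tables were larger, at 2.87 for 4-8 and 2.90 for 12-4.4m1. By rlog difference, Tnfaip3 ranked 18 of 8981 genes by islet increase for 4-8 and 17 of 8438 for 12-4.4m1. In the authors' deposited FPKM values, the level of Tnfaip3 was 268.6 in islets and 34.4 in spleen for 4-8, and 319 in islets and 40.2 in spleen for 12-4.4m1, FPKM ratios of 7.81 and 7.93.

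The 3 atypical, largely nuclear IkB genes followed. Nfkbid encodes IkBNS, which is known in mice for a part in Foxp3 induction, and had rlog values of 7.97, 8.37 and 8.23 in 4-8 islets, against 6.88, 6.98 and 6.64 in 4-8 spleen. In 12-4.4m1 it had 8.17, 7.74 and 8.31 in islets, against 6.37, 6.45 and 6.07 in spleen. The groups did not overlap with either TCR, and Nfkbid rose by 1.35 ± 0.16 for 4-8 (SE, limma adjusted p = 3.7e-05) and by 1.78 ± 0.18 for 12-4.4m1 (limma adjusted p = 9.2e-08).

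Nfkbiz encodes IkB zeta, a nuclear cofactor that is induced by NF-kB and is needed for a set of secondary response genes. Its values were 9.16, 9.55 and 9.15 in 4-8 islets, against 8.27, 8.32 and 8.28 in 4-8 spleen, and 9.17, 9.24 and 9.09 in 12-4.4m1 islets, against 7.78, 7.81 and 7.71 in 12-4.4m1 spleen. Spleen libraries lay close together and below all islet libraries of their TCR. Nfkbiz rose by 0.997 ± 0.15 for 4-8 (SE, limma adjusted p = 0.00033) and by 1.40 ± 0.14 for 12-4.4m1 (limma adjusted p = 1.3e-07).

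Bcl3 encodes a nuclear IkB protein that partners p50 and p52 homodimers. It had rlog values of 7.17, 7.20 and 7.44 in 4-8 islets, against 6.47, 6.63 and 6.70 in 4-8 spleen. In 12-4.4m1 it had 7.16, 6.87 and 7.59 in islets, against 6.14, 5.98 and 6.40 in spleen. The groups were apart with both TCRs, and the smallest gap between an islet and a spleen library was narrower than for Tnfaip3, Nfkbid or Nfkbiz. Bcl3 rose by 0.67 ± 0.16 for 4-8 (SE, limma adjusted p = 0.016) and by 1.03 ± 0.19 for 12-4.4m1 (limma adjusted p = 0.00082). The 4-8 call was lost when any of the 3 spleen libraries was left out, with adjusted p of 0.106, 0.0642 and 0.0547 without spleen replicates 1, 2 and 3, while the difference stayed between 0.58 and 0.72 over all 6 libraries left out. Tnfaip3, Nfkbid and Nfkbiz passed in all 6 such fits with each TCR.

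Nfkbia, the classical inhibitor that sequesters NF-kB dimers and is resynthesised after their release, was high everywhere and spread widely in islets. Its rlog values were 10.67, 10.06 and 10.67 in 4-8 islets, against 9.79, 10.11 and 9.98 in 4-8 spleen. In 12-4.4m1 they were 9.74, 9.56 and 10.36 in islets, against 9.58, 9.63 and 9.60 in spleen. The groups overlapped with both TCRs, since islet replicate 2 lay below the highest spleen library for 4-8 and below all 3 for 12-4.4m1. Its difference was 0.51 ± 0.17 for 4-8 (SE, limma adjusted p = 0.070) and 0.29 ± 0.16 for 12-4.4m1 (limma adjusted p = 0.34), so neither passed. Without islet replicate 2 of 4-8 the difference was 0.71 and passed (limma adjusted p = 0.0011). In the authors' deposited DESeq2 table, Nfkbia was called for 4-8 at a log2 fold of 0.66 (adjusted p = 0.0369) and not for 12-4.4m1 at 0.36 (adjusted p = 0.439).

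Birc3, which encodes the ubiquitin ligase cIAP2 and is a standard NF-kB target, had rlog values of 7.42, 7.48 and 7.68 in 4-8 islets, against 7.19, 7.17 and 7.32 in 4-8 spleen, and 7.51, 7.70 and 6.88 in 12-4.4m1 islets, against 6.83, 6.94 and 7.10 in 12-4.4m1 spleen. The 4-8 groups did not overlap, and in 12-4.4m1 islet replicate 3 lay within the spleen range. The differences of 0.30 ± 0.15 for 4-8 (SE, limma adjusted p = 0.26) and 0.41 ± 0.19 for 12-4.4m1 (limma adjusted p = 0.22) did not pass. Without that islet library the 12-4.4m1 difference was 0.65 and passed (limma adjusted p = 0.0131).

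Among the subunits, Rel stood apart. Its rlog values were 7.35, 7.64 and 7.0 in 4-8 islets, against 6.91, 6.42 and 6.86 in 4-8 spleen. In 12-4.4m1 they were 6.93, 6.68 and 7.18 in islets, against 6.03, 6.36 and 6.28 in spleen. No islet library fell within the spleen range of its TCR. Rel rose by 0.71 ± 0.18 for 12-4.4m1 (SE, limma adjusted p = 0.015), and for 4-8 the difference of 0.60 ± 0.19 did not pass (limma adjusted p = 0.063). Whether the TCRs differ in this increase was not tested, since their tissue tables were normalized separately. The 12-4.4m1 call was lost without spleen replicate 1, at 0.61 (limma adjusted p = 0.107), and Rel passed for 4-8 without islet replicate 3, at 0.77 (limma adjusted p = 0.0123). The authors' deposited DESeq2 table called Rel with both TCRs, at log2 folds of 0.87 for 4-8 (adjusted p = 0.0464) and 1.02 for 12-4.4m1 (adjusted p = 0.0413).

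The other subunit genes did not pass with either TCR. Relb, the partner of p52 in the non-canonical pathway, had rlog values of 7.28 to 7.61 in islets and 6.90 to 7.38 in spleen for 4-8, and 6.81 to 7.16 in islets and 6.42 to 6.99 in spleen for 12-4.4m1. Nfkb1, the source of p105 and p50, had 8.02 to 8.28 in islets and 7.74 to 8.10 in spleen for 4-8, and 7.85 to 7.97 in islets and 7.65 to 7.69 in spleen for 12-4.4m1. Nfkb2, the source of p100 and p52, had 7.81 to 7.88 in islets and 7.62 to 7.86 in spleen for 4-8, and 6.91 to 7.41 in islets and 7.16 to 7.34 in spleen for 12-4.4m1. Tissues overlapped for these 3 genes with both TCRs, except that Nfkb1 in 12-4.4m1 was higher in every islet library. The differences for 4-8 were 0.32 for Relb, 0.20 for Nfkb1 and 0.11 for Nfkb2, with 95% intervals that ran at most to 0.68. For 12-4.4m1 they were 0.22, 0.24 and -0.10 in the same order, with intervals that ran at most to 0.58, and limma adjusted p was 0.28 or more for all 6.

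**Figure D2:**
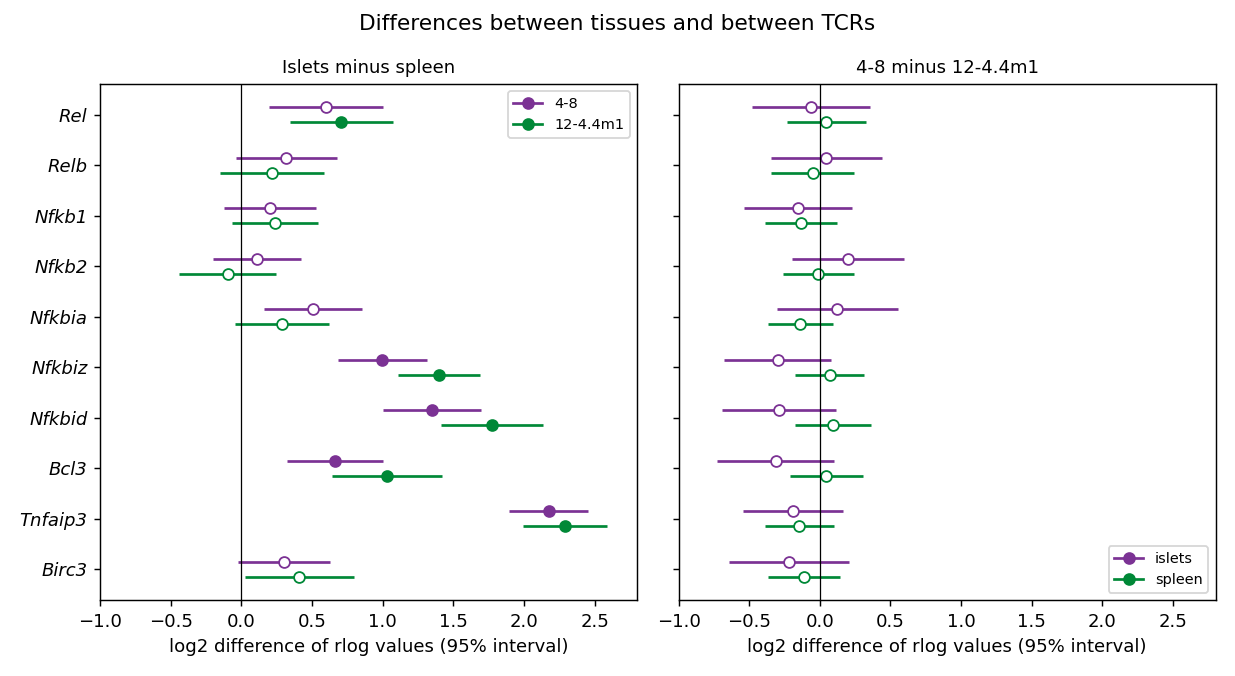
Log2 differences of rlog values with 95% intervals, islets minus spleen on the left and 4-8 minus 12-4.4m1 on the right; filled points passed a limma adjusted p of 0.05. Tnfaip3, Nfkbid, Nfkbiz and Bcl3 are filled with both TCRs on the left and Rel with 12-4.4m1, and no point is filled on the right.

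Counted over the 10 genes, 6 were higher in every islet library than in every spleen library for 4-8, where 14.3% of all genes tested were, and 6 for 12-4.4m1, where 13.2% were. For 4-8 these were the 4 genes called plus Rel and Birc3, and for 12-4.4m1 the 5 genes called plus Nfkb1. The authors' deposited DESeq2 tables called 6 of the 10 higher for 4-8 (4.72% of all genes tested) and 5 for 12-4.4m1 (3.44%), and their Cuffdiff tables called 6 for 4-8 (9.90%) and 6 for 12-4.4m1 (9.55%).

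Per transcript length, the order of levels differed between tissues below Nfkbia. In the authors' deposited FPKM values, a single value per group with no error, Nfkbia was the most abundant of the 10 in every group, at 787 in islets and 485 in spleen for 4-8, and 729 in islets and 537 in spleen for 12-4.4m1. Tnfaip3 came next in islets with both TCRs. In spleen it had 34.4 FPKM for 4-8, below Nfkbiz (48.8), Nfkb2 (47.8), Relb (46.5), Nfkb1 (41.7), Birc3 (38.8), Bcl3 (34.9) and Nfkbid (34.7). In 12-4.4m1 spleen Tnfaip3 had 40.2 FPKM, above Bcl3 (33.9), Nfkbid (29.4) and Rel (25.96) and below the rest. The 3 nuclear IkB genes had 135 (Nfkbiz), 133 (Nfkbid) and 72.0 (Bcl3) FPKM in 4-8 islets, and 175, 177 and 107 FPKM in 12-4.4m1 islets in the same order. The 4 subunit genes lay between 25.96 and 64.8 FPKM in all 4 groups of the tissue tables.

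**Figure D3:**
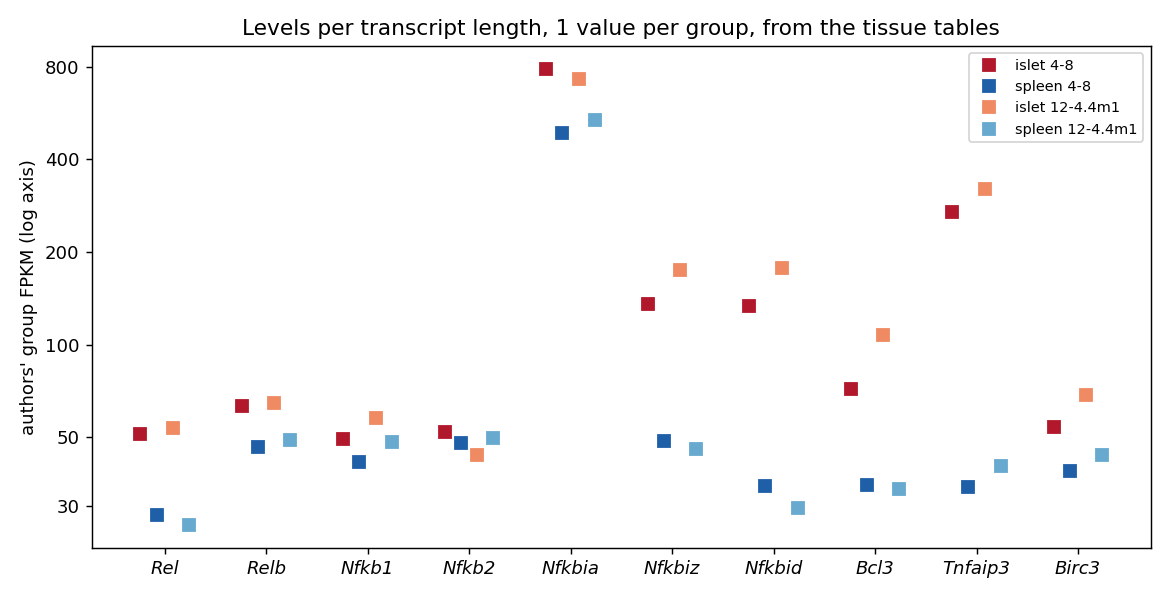
The authors' FPKM per group (log axis) for the 10 genes, from the tables that compare islets with spleen, islets left of spleen within each TCR; each square is a single group value without replicates. Nfkbia reaches 787 in 4-8 islets, and Tnfaip3 is at 268.6 and 319 in islets against 34.4 and 40.2 in spleen.

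Between the TCRs, the 10 genes did not pass the test in either tissue. In islets 0 of 10 were called in either direction for 4-8 against 12-4.4m1, where 0.365% of 8212 genes tested were, and in spleen 0 of 10 were called, where 0.428% of 9108 were (limma, Benjamini-Hochberg). At an unadjusted limma p below 0.05 the count was also 0 in both tissues, and the share of all genes at that level is not reported here. The authors' deposited tables also called 0 of the 10 in both tissues. They called 0.353% (DESeq2) and 0.945% (Cuffdiff) of all genes tested in islets, and 0.231% and 1.15% in spleen. With shares of called genes this small, a count of 0 among 10 genes does not set them apart from other genes. The smallest limma adjusted p was 0.807 in islets and 0.820 in spleen. The differences ran between -0.31 (Bcl3) and 0.20 (Nfkb2) in islets, and between -0.15 (Tnfaip3) and 0.09 (Nfkbid) in spleen. Over the 10 genes, the outermost bounds of the 95% intervals were -0.73 and 0.59 in islets and -0.39 and 0.36 in spleen. With 3 libraries a group, differences between TCRs inside each gene's interval cannot be told from 0. These bounds are not a limit above which a difference would have been called.

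Tnfaip3 had islet rlog values of 10.09, 10.19 and 10.06 with 4-8, against 10.18, 10.22 and 10.51 with 12-4.4m1, which overlap. In spleen it had 7.89, 7.82 and 7.79 with 4-8, against 8.03, 7.89 and 8.02 with 12-4.4m1. In spleen every 4-8 library was below every 12-4.4m1 library, as were 6.48% of all genes tested, and the difference of -0.15 ± 0.12 (SE) did not pass (limma adjusted p = 0.82). The other 9 genes overlapped between the TCRs in spleen, where 6.79% of all genes were higher in every 4-8 library. In islets all 10 overlapped, while 5.92% of all genes were higher and 5.99% lower in every 4-8 library. The nuclear IkB genes had lower islet means with 4-8 than with 12-4.4m1, by differences of -0.30 for Nfkbiz, -0.29 for Nfkbid and -0.31 for Bcl3, while in spleen the same differences were 0.07, 0.09 and 0.05.

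Of the 10 genes, 2 separated by how the islet libraries were titled, a share near that of all genes tested. The titles of islet libraries have 2 styles, with R (4-8 replicates 1 and 3 and 12-4.4m1 replicate 3) or with Treg (4-8 replicate 2 and 12-4.4m1 replicates 1 and 2), and the labels do not say what the styles stand for. Nfkbia had rlog values of 10.18 to 10.33 in the 3 libraries titled R and 9.51 to 9.69 in the 3 titled Treg, with no overlap and a difference of 0.65. Nfkbiz had 8.79 to 9.15 in those titled R and 9.23 to 9.31 in those titled Treg, a difference of -0.35 without overlap. Of all genes tested, 9.30% were higher and 8.27% lower without overlap in the libraries titled R. The other 8 genes overlapped between the styles. With the title style in the islet fit, the TCR difference of Nfkbia was -0.10 in place of 0.12, and 0 of 10 genes were called.

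**Figure D4:**
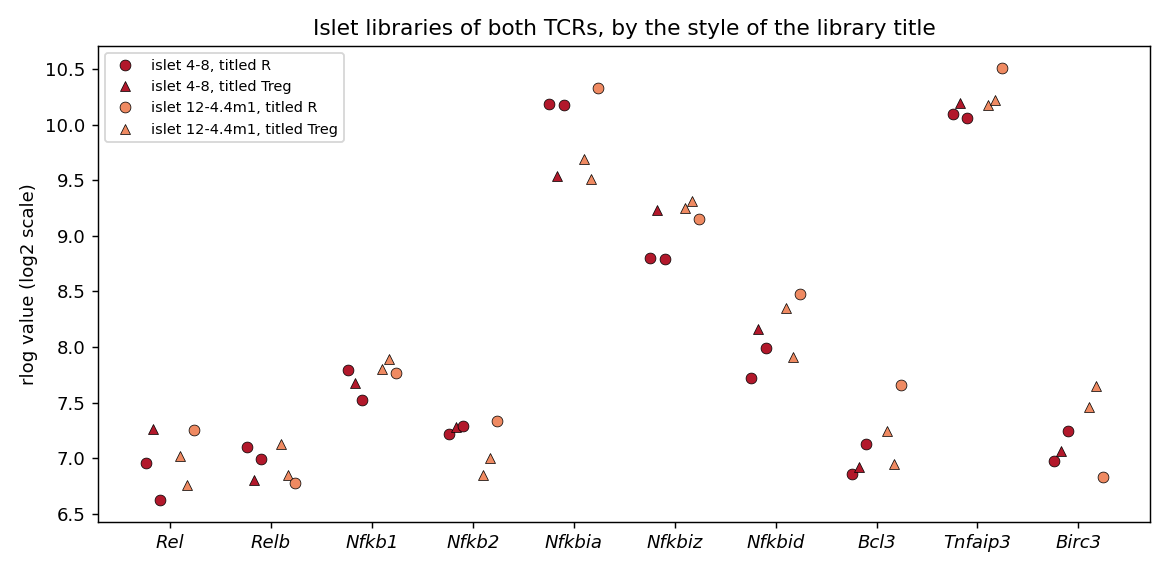
Rlog values (log2 scale) of the 10 genes in the 6 islet libraries, 4-8 left of 12-4.4m1, with circles for libraries titled R and triangles for those titled Treg. The 3 Nfkbia circles lie at 10.18 to 10.33 with either TCR, above the 3 triangles at 9.51 to 9.69.

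All spleen libraries carried R titles, so title style moves with tissue for 2 of the 3 islet libraries of 12-4.4m1 and 1 of the 3 of 4-8. With the R-titled islet library of 12-4.4m1 alone against spleen, the difference of Nfkbia was 0.76, a value that rests on 1 islet library. For 4-8, leaving out the Treg-titled library is the fit given above in which Nfkbia passed.

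Few of the kinases and adaptors that feed the pathway passed the test between tissues. The list of the IKK complex, its relatives and its activators holds 10 genes of kinases and their binding subunits. Of these, 0 rose and 1 fell in islets for 4-8, and 0 passed the limma test for 12-4.4m1. Of all genes tested, 5.14% rose and 2.84% fell for 4-8, and 4.63% rose and 2.18% fell for 12-4.4m1. The gene that fell was Ikbke, an IKK-related kinase, with a mean of 7.43 ± 0.44 for islet and 8.12 ± 0.19 for spleen libraries (SD, n = 3), and the difference was -0.69 (limma adjusted p = 0.038), with overlapping groups and a call that held in 1 of 6 fits with a library left out. The differences of the core genes did not pass the limma test. Chuk (IKK alpha) had -0.33 for 4-8 and -0.52 for 12-4.4m1, and Ikbkb (IKK beta) had -0.18 and 0.11. Ikbkg (NEMO, the regulatory subunit) had 0.15 and -0.47, and Map3k14 (NIK, the non-canonical kinase) had -0.17 and 0.29. With the R-titled islet library of 12-4.4m1 alone, Chuk had -0.89, a value that rests on 1 islet library. The authors' deposited Cuffdiff table called Chuk (q = 0.0312) lower in 12-4.4m1 islets. In the same list it called Tbk1 (q = 0.0378) and Tab2 (q = 0.0486) lower and no gene higher. Tbk1 and Tab2 were named after their values were seen. None of Prkcq, Bcl10 and Malt1, which act between the TCR and IKK, passed. Bcl10 had -0.16 for 4-8 and -0.09 for 12-4.4m1, and Malt1 had 0.47 and 0.35. Malt1 passed for 4-8 without islet replicate 2, at 0.77 (limma adjusted p = 0.0049), and in the authors' deposited Cuffdiff table (q = 0.0287). Prkcq, the kinase PKC theta, named after its values were seen, had -0.63 for 4-8 (limma adjusted p = 0.082) and -0.27 for 12-4.4m1 (limma adjusted p = 0.48), and the authors' deposited Cuffdiff table called it for 4-8 (q = 0.001). Without islet replicate 2 of 4-8 its difference was -0.87 and passed (limma adjusted p = 0.0040). Of 9 TRAF, cIAP and RIP adaptor genes 0 passed with either TCR.

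Of the other NF-kB and IkB genes, Rela, the p65 subunit, had differences of 0.20 for 4-8 and 0.19 for 12-4.4m1 and did not pass. Nfkbib, encoding IkB beta, rose in 4-8 islets by 0.87 ± 0.23 (SE, limma adjusted p = 0.023) and had 0.41 for 12-4.4m1 (adjusted p = 0.22). Its 4-8 call held in 2 of 6 fits with a library left out. Of 13 other brakes and ubiquitin editors, 1 rose for 4-8, where 5.14% of all genes tested did. For 12-4.4m1, 0 passed the limma test in either direction, where 4.63% of all genes rose and 2.18% fell. Cyld, the deubiquitinase that opposes the pathway, did not pass, at -0.36 for 4-8 and -0.22 for 12-4.4m1.

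The brake that rose for 4-8 was Tnip3, whose product binds A20. Libraries of 4-8 averaged 6.15 ± 0.10 rlog units from islets and 5.28 ± 0.12 from spleen (SD, n = 3 each), a difference of 0.87 ± 0.17 (SE, limma adjusted p = 0.0040). For 12-4.4m1 the islet minus spleen difference was -0.12 (adjusted p = 0.81), at a mean normalized count of 11.8. Tnip3 was also higher in islets with 4-8 than with 12-4.4m1, by 1.08 ± 0.20 (SE, limma adjusted p = 0.0065) and in all 3 libraries, whereas none of the 10 genes was. That call was lost without islet 12-4.4m1 replicate 1 or 2 (adjusted p = 0.102 and 0.169) and in the authors' deposited DESeq2 table (adjusted p = 0.0996).

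Some receptor genes and other target genes of the pathway rose in islets, fewer of them called with 12-4.4m1. Of 12 receptor genes tested that signal to NF-kB, 3 rose and 1 fell in islets for 4-8, and 1 rose for 12-4.4m1. Of all genes tested, 5.14% rose and 2.84% fell for 4-8, and 4.63% rose and 2.18% fell for 12-4.4m1. Tnfrsf1b, TNF receptor 2, rose by 0.95 for 4-8 (limma adjusted p = 0.00014) and 0.72 for 12-4.4m1 (0.012). The 12-4.4m1 call was lost without islet replicate 1, spleen replicate 1 or spleen replicate 2. Tnfrsf9, the 4-1BB receptor, rose by 0.95 for 4-8 and Cd28 by 0.60, with the Cd28 call held in 2 of 6 fits with a library left out. Tnfrsf25, death receptor 3, fell by 1.27 for 4-8. Of 16 other NF-kB target genes tested, 6 rose for 4-8 and 2 for 12-4.4m1, with 0 lower. Gadd45b, a stress-response gene, rose by 1.45 for 4-8 and 1.67 for 12-4.4m1, and Irf4, a factor of effector Tregs, by 1.25 and 0.91. The 12-4.4m1 call of Irf4 was lost with the R-titled islet library alone, at 0.66 (limma adjusted p = 0.062). Among the others for 4-8, the chemokine gene Ccl4 rose by 1.75 and the survival gene Bcl2a1d by 1.095, the second with near-identical copies that leave its reads uncertain. The difference between the TCRs in these counts was not tested.

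In the comparison of TCRs, 4 of these pathway genes were called in islets and 2 in spleen. In islets they were 1 of 13 other brakes, 1 of 12 receptor genes and 2 of 16 other target genes tested. In spleen they were 1 of 12 receptor genes and 1 of 16 other target genes tested. Of all genes tested, 0.365% were called in islets and 0.428% in spleen. Besides Tnip3, Ccl4 and Ccl3 were higher with 4-8 in islets, by 2.36 and 1.73, and Il1rl1, the receptor of interleukin 33, was lower with a difference of -0.88 that held in 1 of 6 fits with a library left out. In spleen, Cd27 was higher with 4-8 by 0.99, and Ccl4 by 0.78, which held in 1 of 6 such fits.

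**Figure D5:**
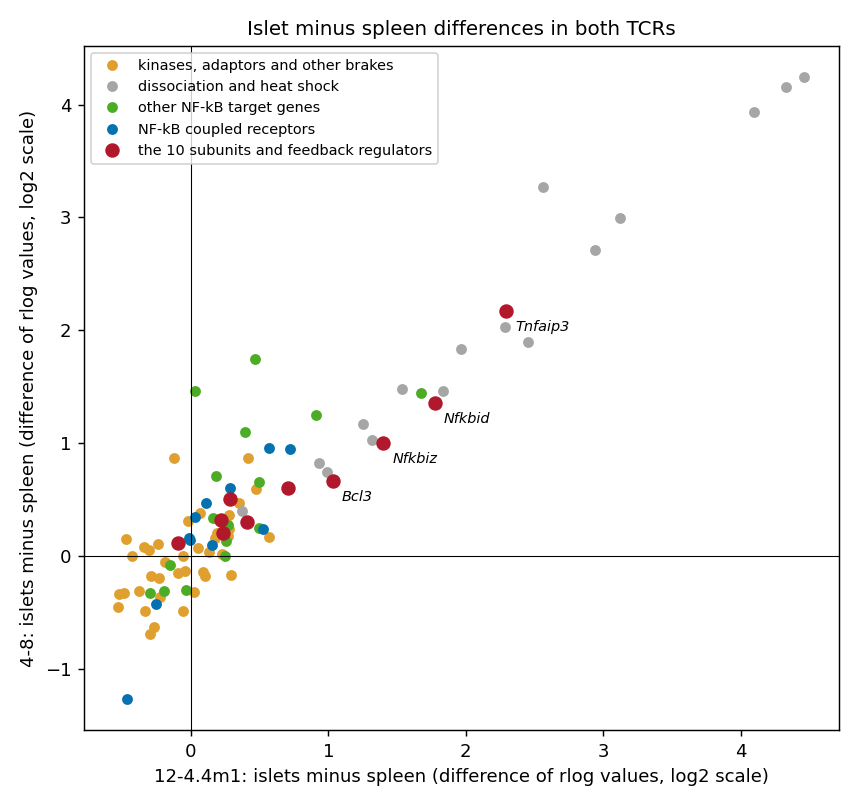
Islet minus spleen difference of rlog values (log2 scale) for 4-8 (y axis) against 12-4.4m1 (x axis), for the 10 genes in red and the pathway and dissociation lists in other colours. Tnfaip3, Nfkbid, Nfkbiz and Bcl3 lie to the upper right among dissociation and heat shock genes, and the kinases, adaptors and other brakes lie between -0.69 and 0.87 for 4-8.

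Immediate early and heat shock genes, which respond to tissue dissociation as well as to signalling, moved in the same direction. Of this list, 15 of 16 genes tested rose in islets for 4-8, with a median difference of 1.86. For 12-4.4m1, 16 of 17 rose, with a median of 1.96. Of all genes tested, 5.14% rose for 4-8 and 4.63% for 12-4.4m1. Summed over the list on the linear scale of the rlog values, the level was 8195 to 9513 in 4-8 islets and 2646 to 2769 in 4-8 spleen, and 7815 to 9479 in 12-4.4m1 islets and 2166 to 2524 in 12-4.4m1 spleen. Pancreatic acinar transcripts also moved with tissue, with 7 of 9 genes tested higher in islets for 4-8 and 8 of 9 for 12-4.4m1. Their sums were 114 to 221 in islets and 78.9 to 87.6 in spleen for 4-8, and 211 to 274 in islets and 99.7 to 112 in spleen for 12-4.4m1. The part of either list in the rise of the NF-kB feedback genes was not tested.

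The genes whose pattern over the libraries was most like the mean of the 10 came partly from that list. Over the 6 libraries of each tissue table, with 8298 genes compared, the closest by mean correlation were Dusp1 (0.995), Ctla4 (0.992), Dusp5 (0.991), Nr4a3 (0.990) and Lag3 (0.987). The 6 points of each table fall into an islet and a spleen cluster, so these values describe the size of the tissue gap relative to the spread. Within the 10, the likeness to their own mean was 0.983 for Tnfaip3, 0.964 for Bcl3, 0.957 for Nfkbid and 0.949 for Nfkbiz, and 0.264 for Nfkb2. Rel (0.846) lay between these and Nfkb1 (0.727), Nfkbia (0.719) and Birc3 (0.686).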

How the data were processed

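RNA-seq libraries were made from sorted Tregs by detergent lysis, reverse transcription, cDNA amplification and Nextera XT, per the labels' protocols. The submitters' processing notes name STAR 1.1.0, TopHat 1.0.0, DESeq2 1.1.0, DESeq and Cufflinks, without roles, and build mm10 (GRCm38). The authors deposited, for each of 4 comparisons, a log2-scale rlog value for each gene and library, a DESeq2 table and a Cuffdiff table, per the file headers. The signal used as the mean normalized count is the base mean that the authors deposited in their DESeq2 table. FPKM was deposited by the authors as 1 value per group. Each p-value of the authors' tests was read from their deposited tables, whose folds run opposite to the rlog differences (100% of genes past 0.5) and were turned round.

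From these, limma 3.58.1 (R 4.3.3) was fitted to the rlog values of each table, with a mean-variance trend, over genes with a mean normalized count of at least 10, without a replicate block, and adjusted by Benjamini-Hochberg over all genes tested. The fit was tested on simulated data. Intervals are 95% and measure the spread among 6 libraries, and library depth is not given in the sources used here. For 2 repeated symbols, 4 entries were left out.

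In the islet comparison of TCRs, 1 column name shows the 4-8 group in the R style, but no R title of that group has its number. That number belongs to the Treg-titled library of the group, which has a column of its own. The unmatched column entered the fit as a library of that group under the name replicate 3. Its values deviated with replicate 3 of the tissue table (r = 0.992 over 8168 genes). Libraries with the same number did not deviate together in every pair, so no pairing was assumed.

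The members and the gene lists were chosen with earlier results of these data known. Named genes are the 10 members, listed pathway genes past the threshold (at most 4 a list by p), core kinases and adaptors, and the 5 genes most like the members' mean. Some genes under this rule are not reported here. Alternatives were the filter, centring, the variance model, the block, the title style, the authors' tables and leaving out libraries. Motifs were searched in RefSeq promoter windows (GRCm38.p6), and positions are from GENCODE vM21.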

Additional observations from a re-analysis of the deposited data

How the results depend on the processing

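With a library left out in turn, the number of the 10 genes called was 3 to 5 for 4-8 islets against spleen, 4 to 6 for 12-4.4m1 islets against spleen, and 0 in every such fit for both comparisons of TCRs. Under the other alternatives the counts were 4 to 6, 5 to 6 and 0. With the replicate block the counts were 4, 5, 0 and 0, as without it. Apart from the authors' tables, the share of all genes called under these settings is not reported here. Whether replicate numbers pair the libraries is not given by the labels, and their correlations do not settle it. Same-numbered libraries correlated between -0.12 and 0.21, and in spleen 3 of 3 matched their own number best.

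Small differences turned sign. Nfkbia between TCRs in islets was -0.10 with the title style in the fit. Relb in islets was -0.0187 in the authors' Cuffdiff table. Bcl3 in spleen was -0.0361 without both libraries numbered 2, which the labels' descriptions tie to each other's tissue tables. With the R-titled islet library alone, 12-4.4m1 islets minus spleen was -0.0784 for Birc3, 0.18 for Nfkb2, -0.0941 for Ikbkb and 0.26 for Bcl10. With a library left out, 4-8 minus 12-4.4m1 in islets ranged between -0.0431 and 0.37 for Nfkbia, -0.22 and 0.0985 for Rel, and -0.0234 and 0.15 for Relb. In spleen it ranged between -0.0108 and 0.17 for Nfkbid, -0.0237 and 0.13 for Bcl3, -0.0394 and 0.18 for Rel, -0.19 and 0.0664 for Relb, and -0.0751 and 0.0442 for Nfkb2. Islets minus spleen in 12-4.4m1 ranged between -0.23 and 0.0132 for Nfkb2, -0.0855 and 0.24 for Ikbkb, and -0.27 and 0.0870 for Bcl10. None of these passed the test in the reported fits, and the cause was not tested.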
